A study of Mus musculus with 12 samples.

Results

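The genotype by agonist interaction in brown fat compares, gene by gene, the response to a β3-adrenergic agonist in mice that lack Cpt2 in their adipocytes with the response in control mice. It addresses which parts of the transcriptional response to the agonist differ when adipocytes lack the last enzyme that brings long-chain fatty acids into mitochondria. The interaction is the difference CL316243 minus saline in knockouts, minus the same difference in wild types, in log2 units of array signal. A value below 0 therefore marks a response that was lower in knockouts than in wild types. All 12 of the 12 arrays of the series entered it, and 15896 of the 20259 genes with a row of their own were tested.

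The mice were 12-week-old C57BL/6 females in 4 groups of 3, and the interscapular brown fat of each was measured on 1 array. Every mouse carried the floxed Cpt2 alleles (Cpt2f/f). The wild-type controls carried these alleles alone, and the knockouts were adiponectin-Cre; Cpt2f/f. All mice were kept for 2 weeks at 30 °C, were then injected intraperitoneally with saline or with 10 mg/kg CL316243, and gave tissue 3 h later. The adiponectin promoter acts in white as well as brown adipocytes, so the deletion is not limited to brown fat, and the other cells of the tissue keep Cpt2. RNA was taken from whole tissue, in which fewer cells of a type and less RNA per cell cannot be told apart.

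CL316243 binds the β3-adrenergic receptor of adipocytes, which raises cAMP and activates protein kinase A. The kinase phosphorylates transcription factors such as CREB, which switch on early genes, and starts the breakdown of stored triacylglycerol. The fatty acids that are released enter mitochondria through the carnitine shuttle, in which Cpt2 is the last enzyme, and their oxidation feeds heat production through Ucp1. Fatty acids and their derivatives are also ligands of the PPAR nuclear receptors and of membrane receptors, so signals from lipid and signals from cAMP both reach the nucleus after an agonist.

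Cpt2 signal was lower in every knockout array (7.87 to 8.20) than in every wild-type array (8.52 to 8.99). The knockout difference was -0.75 both after saline (adjusted p = 0.00207) and after CL316243 (adjusted p = 3.86e-04), and its interaction was -0.01 ± 0.135 (standard error, 3 arrays per group, adjusted p = 0.99). Whether its probes lie in the deleted part of the gene is not known here. Signals correlated across tested genes at r of 0.937 to 0.984 within groups. Knockout saline array 1 stood apart in Ucp1, which read 8.39 there against 12.29 and 11.47 in the other knockout saline arrays. Skeletal muscle markers varied from array to array: the mean centred signal of 20 markers ran from -2.08 to 1.87 after saline and from -1.66 to 0.40 after CL316243 in wild types, and from -2.14 to 1.09 and from -0.32 to 1.52 in knockouts. The median interaction of these 20 markers was 1.40, with 0 called by limma and 0 at an unadjusted p under 0.05, and their part in the results below was not tested beyond a fit with this score as a covariate. The adipocyte markers Adipoq (11.32 to 12.36), Fabp4 (11.65 to 12.34) and Plin1 (10.09 to 10.65) were strong in every array.

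Genes were called at an adjusted p under 0.05, from limma with Benjamini-Hochberg adjustment over all tested genes, and each ± is a standard error from that fit. The interaction was called for 324 genes, 2.04% of those tested, with 2532 genes at an unadjusted p under 0.05. Of the called genes, 201 (1.26% of those tested) lay below 0 and 123 (0.774%) above it. Their absolute sizes ran from 0.42 to 2.52 with a median of 0.87, and 119 reached 1 log2 unit. The share above 0 was 38.0%, and it was 24.1% when the arrays were centred again on their medians, which left 186 genes below 0 and 59 above. Across all tested genes the median interaction was 0.01.

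The signs of the estimates show what the called interactions consisted of. Among the 201 genes below 0, the estimated response pointed up in both genotypes for 107, up in wild types and down in knockouts for 92, and pointed down in both for 2. Among the 123 genes above 0, it pointed down in wild types and up in knockouts for 83, up in both for 21 and down in both for 19. For 190 of the 324 genes neither genotype had a called response of at least 1 log2 unit.

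The calls depended on which mice were included. Leaving out 1 array at a time gave 128 to 401 called genes. The count fell by over 1.5 times without wild-type CL316243 array 2 (128 genes), knockout CL316243 array 3 (132) or 2 (158), knockout saline array 3 (175) or 2 (180), and wild-type saline array 3 (181) or 1 (188). Without knockout saline array 1, which stood apart, 300 genes were called, 234 of them called with all arrays and in the same direction. With the skeletal muscle score as a covariate 239 genes were called, 214 of them shared in the same way. In all, 100 genes were called with all 12 arrays and under each of 21 refits at the same threshold, namely 9 processing settings and 12 fits with 1 array left out. The 21 alternatives named below are these refits, and a stricter threshold is not among them.

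**Figure D1:**
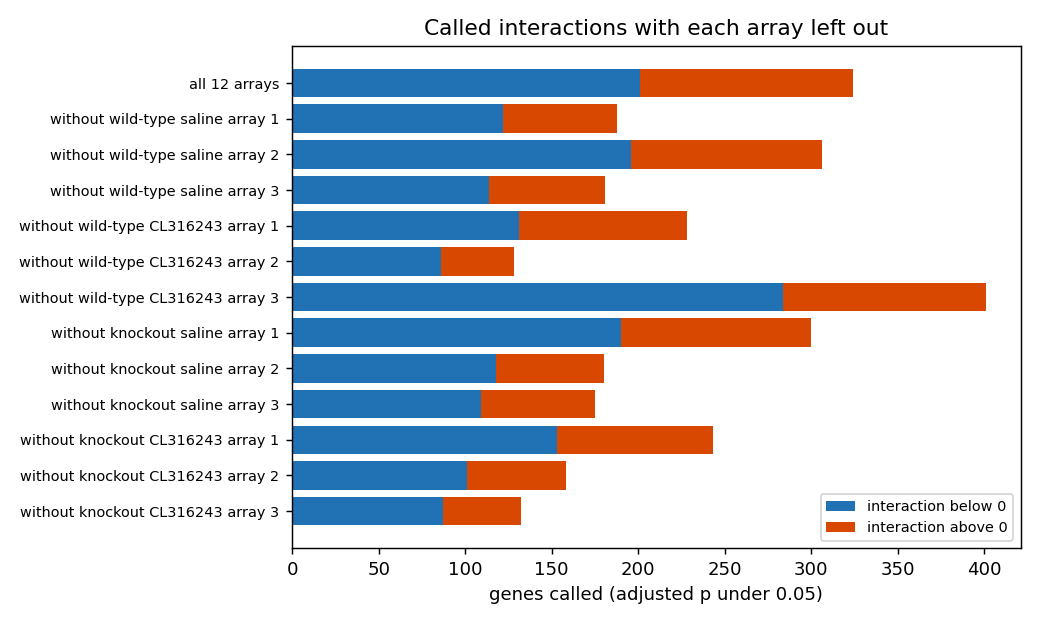
Number of genes with a called interaction (adjusted p under 0.05) with all 12 arrays and with each array left out in turn, split into interactions below 0 (blue) and above 0 (orange). The bars run from 128 genes without wild-type CL316243 array 2 to 401 without wild-type CL316243 array 3, and in each of them more genes lie below 0 than above.

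To set the interaction beside the size of each response, a large response was defined as a called difference of at least 1 log2 unit. Wild types had 458 large responses (2.88% of tested genes), 291 rising and 167 falling. Knockouts had 233 (1.47%), 176 rising and 57 falling. The 104 genes with a large response in both genotypes made up 22.7% of the wild-type and 44.6% of the knockout responses, and all 104 moved in the same direction. Without the size limit, the agonist difference was called for 29.8% of tested genes in wild types and 17.9% (2851 genes) in knockouts. The knockout count was 1596 without knockout CL316243 array 1, 1700 without knockout saline array 1 and 1732 without knockout CL316243 array 3. The responses of the 2 genotypes, which share no arrays, correlated across genes at r = 0.575, as a description.

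The 458 large wild-type responses fell into classes. A smaller response in knockouts, which means a called interaction against the direction of the wild-type response, was found for 110 genes (24.02%), 97 rising and 13 falling in wild types. A retained response was found for 35 (7.64%), 28 rising and 7 falling: these were called in both genotypes in the same direction, had no called interaction, and had a 95% interval of the interaction that left out a loss or gain of 50% of the wild-type response. For 312 genes (68.12%) neither could be said, and for these the 95% interval reached, at the median, 0.587 to either side of the estimate, against 0.362 over all tested genes. Of the 312, 179 were called in knockouts in the same direction as in wild types and 133 were not called there. The remaining gene, Prg4, had a larger response in knockouts.

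The class medians describe how far apart the genotypes were. The knockout response of the 110 smaller genes was, at the median, 20.75% of the wild-type response on the log2 scale, at 0.27 against 1.37. Their median knockout difference was 0.08 after saline and -0.97 after CL316243. These medians keep the sign, so differences of opposite sign cancel, and 0.08 does not mean that the genotypes were level after saline. In this class the called saline differences included 1.27 for Irs1 and -1.02 for Elovl3. For the 35 retained genes the median was 88.23%, and for all 458 it was 47.35%. Choosing genes by their wild-type response favours smaller responses in knockouts, since the wild-type arrays enter both the choice and the interaction, so these medians are descriptions. The same choice made in knockouts gave the reverse order: the 233 large knockout responses had medians of 1.16 in knockouts and 0.61 in wild types.

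**Figure D2:**
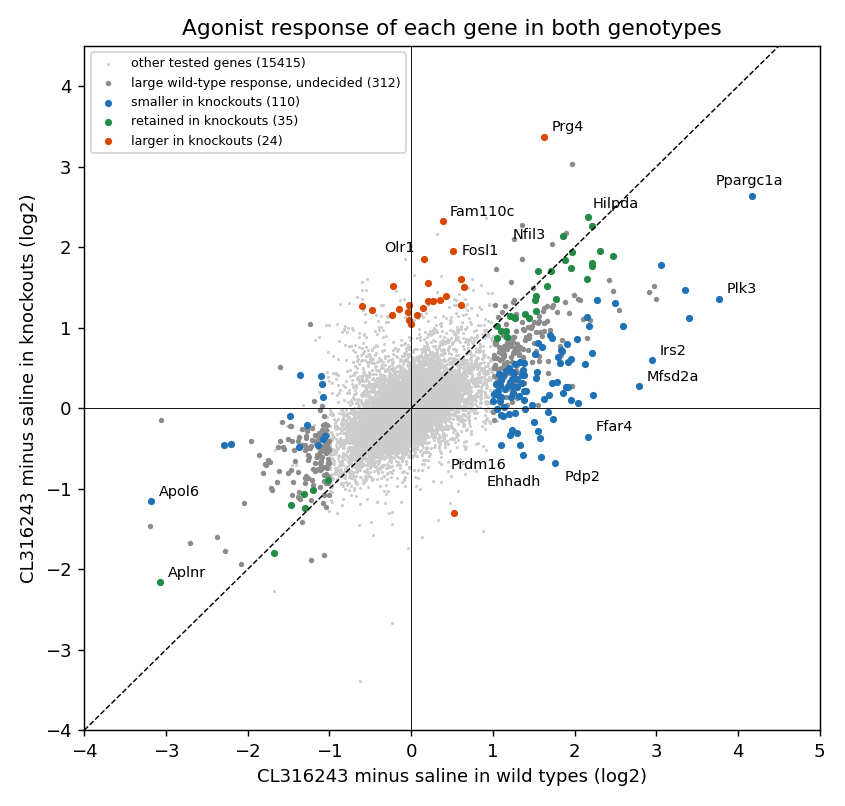
Response to CL316243 (CL316243 minus saline, log2) of each tested gene in wild types (horizontal axis) and in knockouts (vertical axis), with equal responses on the dashed line. Blue points mark the 110 responses that were smaller in knockouts, green the 35 retained, orange the 24 larger, and dark grey the 312 large wild-type responses that were neither.

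Early genes downstream of cAMP were the first group in which responses were smaller in knockouts. Of 37 tested genes of the cAMP and immediate-early list, 6 had a called interaction below 0 and 1 above it, beside 1.26% and 0.774% of all tested genes. The list's median interaction was -0.33 against 0.01 over all tested genes. Plk3, a stress-activated polo-like kinase, held the largest of them. Plk3 signals were 7.87, 7.53 and 7.56 in wild types after saline, 11.48, 11.47 and 11.32 after CL316243, 7.06, 8.05 and 7.56 in knockouts after saline and 8.88, 9.06 and 8.81 after CL316243. The arrays of stimulated knockouts lay above every saline array and below every array of stimulated wild types. Plk3 rose 13.6-fold in wild types and 2.57-fold in knockouts, an interaction of -2.41 ± 0.284 (adjusted p = 0.0027).

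Nr4a2, an orphan nuclear receptor of the Nr4a family, read 8.16, 7.71 and 7.53 in wild-type saline arrays, 9.48, 9.26 and 9.31 after CL316243, 7.47, 8.21 and 7.48 in knockout saline arrays and 7.22, 7.51 and 7.56 after CL316243. The knockout groups overlapped, while the stimulated wild types stood above all other arrays. Its interaction was -1.84 ± 0.296 (adjusted p = 0.0131), with a response of 1.55 in wild types and -0.29 in knockouts (adjusted p = 0.39). Atf3, a stress-induced transcription factor that dimerises with Jun proteins, rose in both genotypes, by 2.21 in wild types and 0.68 in knockouts (interaction -1.53 ± 0.257, adjusted p = 0.0153). The calls of Plk3, Nr4a2 and Atf3 held under all 21 alternatives.

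Sik1, a kinase that restrains the CREB coactivators, had responses of 2.12 and 0.55 (interaction -1.57 ± 0.322, adjusted p = 0.0328). Its call ended when any array other than knockout saline 1 or 2 or wild-type CL316243 3 was left out (adjusted p = 0.0574 to 0.0868). The other called members below 0, Cebpb and Klf4, are both transcription factors of early adipogenesis and lay outside the rule for naming genes. Cebpb responded by 1.85 and 0.71 (interaction -1.14 ± 0.212, adjusted p = 0.0225), and its call ended without knockout CL316243 array 2 or 3, knockout saline array 3, or wild-type CL316243 array 1 or 2 (adjusted p = 0.0506 to 0.064). Klf4 responded by 2.03 and 0.86 (interaction -1.17 ± 0.221, adjusted p = 0.0234), and its call ended without array 1 or 2 of either stimulated group or wild-type saline array 1 (adjusted p = 0.0509 to 0.0705).

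The remaining Nr4a receptors were not called with all arrays. The interaction was -1.47 ± 0.503 for Nr4a3 (adjusted p = 0.173) and -1.15 ± 0.569 for Nr4a1 (adjusted p = 0.362). In the knockout saline group, array 1 read 6.52 for Nr4a3 and 7.33 for Nr4a1, below the other arrays at 8.48 and 7.43 and at 9.56 and 8.75. Without that array the interactions were -1.95 for Nr4a3 (adjusted p = 0.0206) and -1.76 for Nr4a1 (adjusted p = 0.0151), both called.

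The promoters of early genes bear on this group because CREB binds the cAMP response element, whose half-site TGACG was searched on both strands (CGTCA on the other). Of the 12294 tested genes with a RefSeq promoter (GRCm38.p6, from 250 bases before to 50 after the start), 31.51% held the half-site. It was present in 33 of 89 promoters of smaller responses (37.08%), in 16 of 23 of retained responses (69.57%) and in 4 of 15 of larger responses (26.67%). These shares are descriptions, and base composition was not compared. Stretches of 100 bases holding the upstream half-site nearest the start are shown for 3 genes with smaller responses (Plk3, Nr4a2 and Ppargc1a) and 1 with a retained response (Nfil3), so that genes of both classes can be read side by side. Capitals mark the half-site and the sequence runs 5′ to 3′ on the gene's strand.
Plk3, chr4:117133975-117134074, minus strand: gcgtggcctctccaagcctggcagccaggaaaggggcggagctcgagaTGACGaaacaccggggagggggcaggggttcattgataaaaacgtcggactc
Nr4a2, chr2:57124063-57124162, minus strand: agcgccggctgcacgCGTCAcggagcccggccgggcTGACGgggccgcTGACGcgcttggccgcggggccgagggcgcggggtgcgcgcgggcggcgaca
Ppargc1a, chr5:51567726-51567825, minus strand: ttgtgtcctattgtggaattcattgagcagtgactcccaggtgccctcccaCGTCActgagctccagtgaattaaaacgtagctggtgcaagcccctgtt
Nfil3, chr13:52981047-52981146, minus strand: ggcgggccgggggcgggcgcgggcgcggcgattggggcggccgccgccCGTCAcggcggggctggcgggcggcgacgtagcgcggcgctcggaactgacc
The Nr4a2 stretch holds 3 half-sites and each of the others 1, so a half-site in this window is found with a response that was smaller in knockouts and with one that was retained. The full element TGACGTCA was present in 2.98% of all promoters, in 4 of 89 of smaller, 1 of 23 of retained and 1 of 15 of larger responses.

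Upstream of these genes, in the adrenergic signalling list, 1 of 34 tested genes was called, below 0, beside 1.26% of all tested genes, and the median was -0.18. That gene was Adcy3, an adenylyl cyclase that makes cAMP. Adcy3 signals were 8.38, 8.47 and 8.19 in wild-type saline arrays, 9.79, 9.91 and 9.92 after CL316243, 7.63, 7.74 and 7.57 in knockout saline arrays and 8.02, 8.15 and 7.90 after CL316243. No pair of the 4 groups overlapped. It rose 2.88-fold in wild types and 1.30-fold in knockouts (interaction -1.15 ± 0.135, adjusted p = 0.0027), and the knockouts were already lower after saline by -0.70 (adjusted p = 0.00273). Knockout differences were called for 11.6% of all tested genes after saline and 29.5% after CL316243.

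The coactivator Ppargc1a, which drives mitochondrial and thermogenic gene programmes, rose strongly in both genotypes. Ppargc1a read 7.32, 7.45 and 7.07 in wild types after saline, 11.57, 11.53 and 11.27 after CL316243, 6.70, 7.87 and 6.97 in knockouts after saline and 9.76, 9.84 and 9.84 after CL316243. Each stimulated group lay apart from both saline groups and from the other stimulated group. The rise was 18.0-fold in wild types and 6.22-fold in knockouts, so knockouts kept 63.17% of it on the log2 scale (interaction -1.54 ± 0.335, adjusted p = 0.0433). The call ended when any array other than knockout saline 1 or 2 or wild-type CL316243 3 was left out (adjusted p = 0.0547 to 0.104), and under 3 of the 9 processing settings (adjusted p = 0.0539 to 0.0964). Among 24 tested PGC-1, ERR and PPAR regulators, whose median was -0.14, it was the 1 called gene, beside 2.04% of all tested genes. Ppargc1b, its paralog, had an interaction of -0.44 ± 0.424 (adjusted p = 0.689).

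Ppara, the nuclear receptor that senses fatty acids and controls oxidation genes, rose by 1.56 in wild types and had a difference of 0.05 in knockouts (adjusted p = 0.944). Its interaction of -1.51 ± 0.44 was not called (adjusted p = 0.111). Without knockout saline array 1, where Ppara read 9.02 against 10.38 and 9.87 in the other arrays of that group, it was -1.88 and was called (adjusted p = 0.028).

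Transcription factors of brown fat identity included responses of opposite sign. Prdm16, which sets the brown adipocyte fate, read 7.90, 8.11 and 8.07 in wild-type saline arrays, 9.43, 9.23 and 9.51 after CL316243, 7.72, 7.72 and 7.56 in knockout saline arrays and 7.29, 7.07 and 6.91 after CL316243. The stimulated wild types lay above their saline group and the stimulated knockouts below theirs, without overlap. Prdm16 rose 2.57-fold in wild types and fell to 0.668 of its saline level in knockouts (interaction -1.95 ± 0.162, adjusted p = 2.26e-04). Ebf2, a partner factor that opens chromatin at brown fat genes, fell by 0.65 in knockouts (adjusted p = 0.00109) with a difference of 0.21 in wild types (adjusted p = 0.0985), an interaction of -0.86 ± 0.126 (adjusted p = 0.00886).

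The third called gene of the 31 tested brown adipocyte transcription factors and markers lay above 0. Plac8, known from mice as a gene of brown fat differentiation, fell by 0.89 in wild types and rose by 0.83 in knockouts (interaction 1.72 ± 0.186, adjusted p = 0.00189). Plac8 was already higher in knockouts after saline, by 0.70 (adjusted p = 0.00975). The list's median was -0.18, with 2 genes called below 0 and 1 above, beside 1.26% and 0.774% of all tested genes. Prdm16, Ebf2 and Plac8 were called under all 21 alternatives.

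Among 22 tested thermogenic effectors 2 were called, both below 0, beside 1.26% of all tested genes, and the list's median was -0.23. Elovl3, which elongates very long-chain fatty acids in brown fat, rose 10.2-fold in wild types and 2.77-fold in knockouts (interaction -1.89 ± 0.339, adjusted p = 0.02). Its call ended without array 2 of wild types after CL316243 or of knockouts after saline or CL316243 (adjusted p = 0.0506 to 0.051). Kcnk3, a potassium channel of brown adipocytes, rose by 0.67 in wild types and fell by 0.49 in knockouts (interaction -1.15 ± 0.201, adjusted p = 0.0176), and its call ended without wild-type CL316243 array 2 or knockout CL316243 array 3 (adjusted p = 0.0506 to 0.054). After saline the Kcnk3 signal was already lower in knockouts, by -0.60 (adjusted p = 0.0238).

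Ucp1, the uncoupling protein of brown fat mitochondria, gave no called interaction. Its signals were 12.60, 12.94 and 12.07 in wild-type saline arrays, 13.59, 13.68 and 13.60 after CL316243, 8.39, 12.29 and 11.47 in knockout saline arrays and 10.69, 11.70 and 11.90 after CL316243. The stimulated wild types lay above all other arrays, and the knockout groups overlapped. The interaction was -0.37 ± 1.08 (adjusted p = 0.913) with a 95% interval from -2.74 to 2.00, which is too wide to say whether the responses differed. Without knockout saline array 1 the Ucp1 interaction was -1.53, and it was called under none of the 21 alternatives. Dio2, the deiodinase that activates thyroid hormone, had an interaction of -1.24 ± 0.678 (adjusted p = 0.418), and it was -1.90 without knockout saline array 1 (adjusted p = 0.0554).

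**Figure D3:**
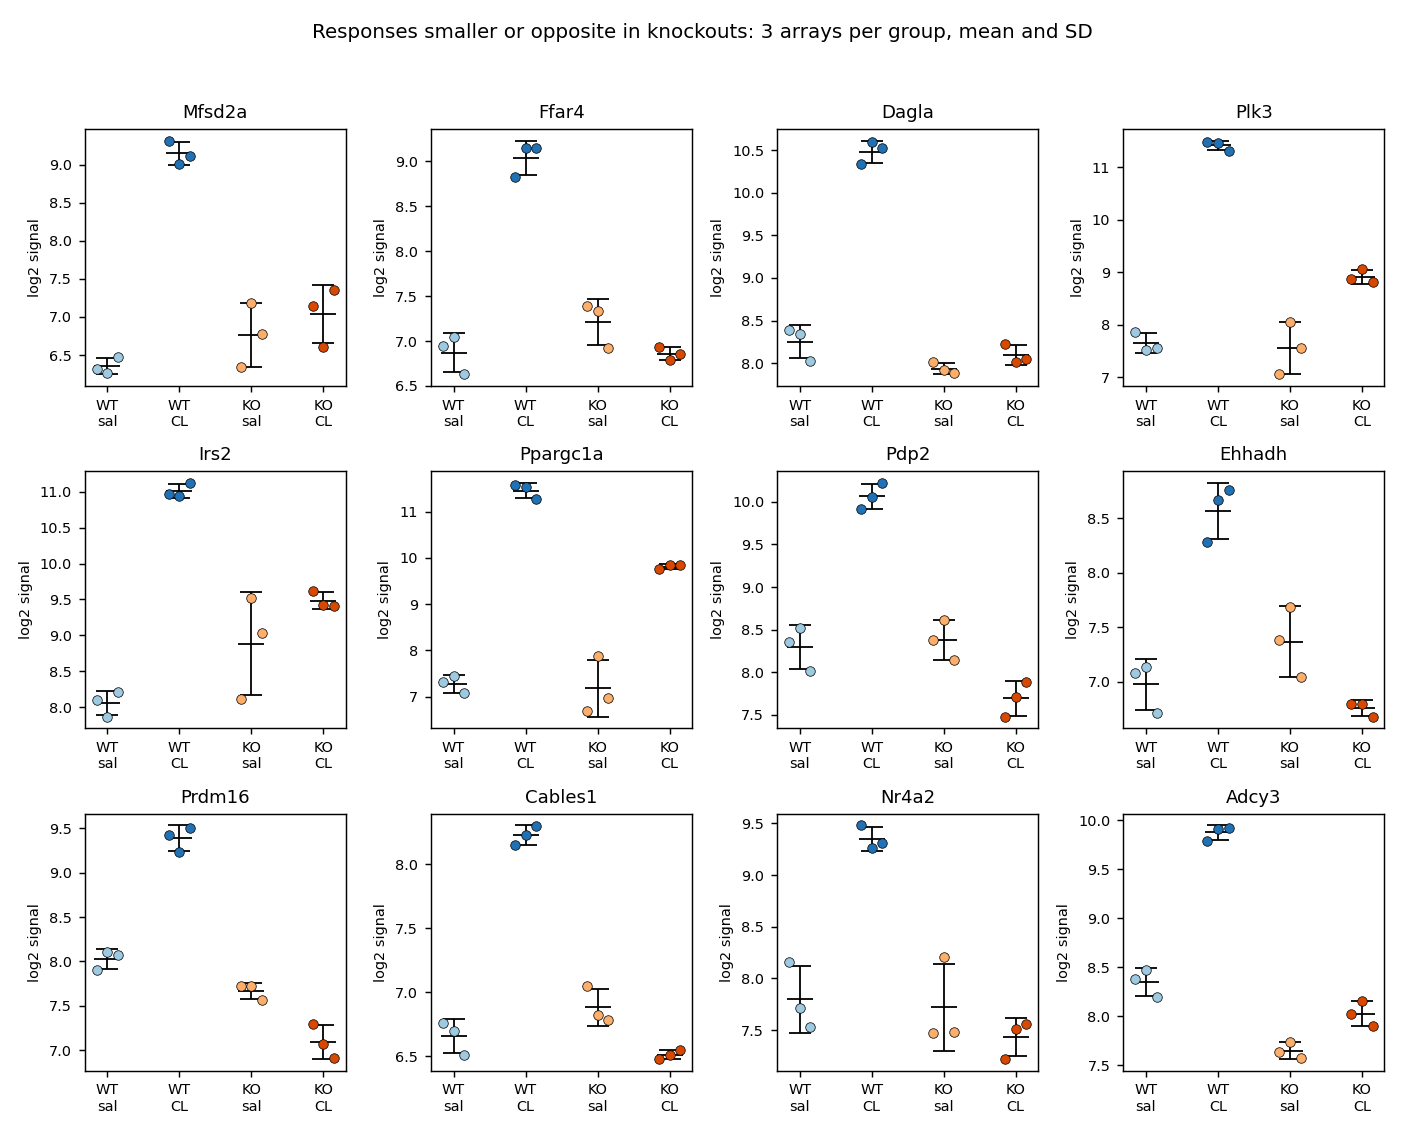
Log2 signal of 12 genes whose response was smaller or of opposite sign in knockouts, with 1 point per array and the mean and SD of the 3 arrays per group (WT wild type, KO knockout, sal saline, CL CL316243). In each panel the stimulated wild types are the highest group and lie apart from the stimulated knockouts.

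The interactions of largest size among the 324 called genes were those of Mfsd2a and Ffar4, genes of lipid transport and lipid sensing. Mfsd2a, a transporter of lysophosphatidylcholine that carries long-chain fatty acids, read 6.32, 6.27 and 6.48 in wild-type saline arrays, 9.32, 9.01 and 9.12 after CL316243, 6.34, 7.18 and 6.78 in knockout saline arrays and 7.15, 6.61 and 7.35 after CL316243. The stimulated wild types stood above all other arrays, and the knockout groups overlapped. Mfsd2a rose 6.93-fold in wild types, and its knockout difference was 0.27 (adjusted p = 0.446), an interaction of -2.52 ± 0.307 (adjusted p = 0.00354).

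Ffar4, a membrane receptor for long-chain fatty acids, read 6.94, 7.04 and 6.63 in wild-type saline arrays, 8.82, 9.15 and 9.15 after CL316243, 7.39, 7.33 and 6.92 in knockout saline arrays and 6.93, 6.79 and 6.86 after CL316243. It was high in the stimulated wild types alone. Its 4.49-fold rise there stood against a knockout difference of -0.35 (adjusted p = 0.12), an interaction of -2.52 ± 0.207 (adjusted p = 2.26e-04).

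Dagla, the diacylglycerol lipase that makes the endocannabinoid 2-arachidonoylglycerol, read 8.39, 8.34 and 8.03 in wild-type saline arrays, 10.34, 10.59 and 10.52 after CL316243, 8.01, 7.92 and 7.88 in knockout saline arrays and 8.23, 8.01 and 8.05 after CL316243. The knockout groups met at 8.01, and the stimulated wild types lay far above. The response was 2.23 in wild types and 0.16 in knockouts (adjusted p = 0.348), an interaction of -2.07 ± 0.155 (adjusted p = 1.83e-04). Mfsd2a, Ffar4 and Dagla were called under all 21 alternatives. So were Fbxo21, a ubiquitin ligase subunit (interaction -1.98 ± 0.214), Gem, a small GTPase that restrains calcium channels (-1.88 ± 0.27), and Slc4a4, a sodium bicarbonate cotransporter (-1.85 ± 0.314). These 3 rose in wild types by 2.05, 1.74 and 1.95, with knockout differences of 0.07, -0.14 and 0.10, none of them called. Gem was already higher in knockouts than in wild types after saline, by 0.67 (adjusted p = 0.046).

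PPAR target genes with a called interaction all lay below 0. Of 28 tested targets, 4 were called below 0 and 0 above, beside 1.26% and 0.774% of all tested genes. The median was -0.42, with 23 estimates below 0. Ehhadh, an enzyme of peroxisomal fatty acid oxidation, read 7.08, 7.14 and 6.71 in wild-type saline arrays, 8.28, 8.67 and 8.76 after CL316243, 7.38, 7.69 and 7.04 in knockout saline arrays and 6.80, 6.80 and 6.68 after CL316243. It rose 3.02-fold in wild types and fell to 0.657 of its saline level in knockouts (interaction -2.20 ± 0.249, adjusted p = 0.00228).

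The other 3 called targets were acyl-CoA thioesterases, which cleave fatty acids from coenzyme A. Acot2, the mitochondrial enzyme, read 10.14, 9.76 and 9.93 in wild-type saline arrays, 10.96, 11.27 and 11.02 after CL316243, 9.48, 9.75 and 9.34 in knockout saline arrays and 9.56, 9.50 and 9.56 after CL316243. Stimulated wild types stood above the rest, and the knockout response was 0.02 (adjusted p = 0.944), an interaction of -1.12 ± 0.181 (adjusted p = 0.0131). Acot3 had responses of 1.89 and 0.27 (interaction -1.63 ± 0.21, adjusted p = 0.00467). Acot4 rose in both genotypes, by 2.59 and 1.03 (interaction -1.57 ± 0.241, adjusted p = 0.011). These genes lie in a cluster of close paralogs, so probes may read more than 1 of them. Acot8, a peroxisomal thioesterase of another family, was also called (interaction -0.79 ± 0.134, adjusted p = 0.0153), with a rise of 0.53 in wild types and a knockout difference of -0.26 (adjusted p = 0.0774). Ehhadh and the 4 thioesterases were called under all 21 alternatives.

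The respiratory chain, tricarboxylic acid cycle and mitochondrial β-oxidation lists had at most 1 called gene each, beside 2.04% of all tested genes. The respiratory chain list had 0 called of 52 tested genes, 5 at an unadjusted p under 0.05, and a median of -0.22. The tricarboxylic acid cycle list had 1 of 30 below 0 and a median of -0.19, and mitochondrial β-oxidation had 1 of 26 below 0 and a median of -0.22. The last of these was Crat, which makes acetylcarnitine (interaction -0.84 ± 0.18, adjusted p = 0.0416), and its call ended when any array other than knockout saline 1, wild-type CL316243 1 or wild-type saline 2 was left out (adjusted p = 0.0527 to 0.107), and under 4 of the 9 processing settings (adjusted p = 0.051 to 0.0755). Among 29 peroxisomal genes 3 were called below 0, beside 1.26% of all tested genes, and the median was -0.10. They were Ehhadh and Acot8, given above, and Pex13, a docking protein of peroxisomal import. The Pex13 interaction of -0.91 ± 0.2 (adjusted p = 0.0439) lost its call without any 1 of 8 arrays (adjusted p = 0.073 to 0.115), all except array 1 of both knockout groups, wild-type CL316243 array 3 and wild-type saline array 2. It was also lost under 4 of the 9 processing settings (adjusted p = 0.056 to 0.0834).

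Pdp2, the phosphatase that activates pyruvate dehydrogenase, was the called gene of the tricarboxylic acid cycle list. Pdp2 read 8.35, 8.52 and 8.02 in wild-type saline arrays, 9.92, 10.05 and 10.22 after CL316243, 8.38, 8.61 and 8.15 in knockout saline arrays and 7.48, 7.71 and 7.89 after CL316243. It rose 3.40-fold in wild types and fell to 0.622 of its saline level in knockouts, without overlap between the saline and CL316243 groups of either genotype (interaction -2.45 ± 0.224, adjusted p = 5.33e-04). Pdk4, a kinase that opposes it, had an interaction of -0.49 ± 0.581 (adjusted p = 0.75). Without knockout saline array 1, where Pdk4 read 10.31 against 12.58 and 11.95, it was -1.14 and was called (adjusted p = 0.0228).

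Responses of opposite sign, called in both genotypes, were found for 5 of the 110 genes with smaller responses. They were Prdm16, Ehhadh and Pdp2, given above, Cables1, an adaptor of cyclin-dependent kinases, and Dusp7, a phosphatase of MAP kinases that lay outside the rule for naming genes. Cables1 rose by 1.57 in wild types and fell by 0.37 in knockouts (interaction -1.94 ± 0.133, adjusted p = 1.83e-04). Dusp7 rose by 1.24 in wild types and fell by 0.27 in knockouts (interaction -1.504 ± 0.116, adjusted p = 1.83e-04). All 5 were called under all 21 alternatives.

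Insulin signalling genes were another group with smaller responses in knockouts. Of 28 tested genes, 4 were called below 0 and 0 above, beside 1.26% and 0.774% of all tested genes. The list's median was -0.01, so the calls did not extend to the list as a whole. Irs2, an adaptor of the insulin receptor, read 8.10, 7.87 and 8.21 in wild-type saline arrays, 10.97, 10.94 and 11.12 after CL316243, 8.11, 9.52 and 9.03 in knockout saline arrays and 9.62, 9.42 and 9.41 after CL316243. The knockout groups overlapped and the knockout saline arrays were spread widely, with array 1 near the wild-type saline level. Irs2 rose 7.72-fold in wild types, and its knockout difference was 0.60 (adjusted p = 0.148), an interaction of -2.35 ± 0.376 (adjusted p = 0.0128) that was called under all 21 alternatives.

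Irs1, its paralog, rose by 1.86 in wild types with a knockout difference of 0.19 (interaction -1.67 ± 0.324, adjusted p = 0.0265). The knockouts were already higher than the wild types after saline, by 1.27 (adjusted p = 0.00792). After CL316243 they differed from the wild types by -0.39, which was not called (adjusted p = 0.21). The Irs1 call ended without array 1 or 3 of wild-type saline, array 1 or 2 of wild-type CL316243, or knockout saline array 3 (adjusted p = 0.0564 to 0.0723). Foxo1, a transcription factor that insulin keeps out of the nucleus, had responses of 1.30 and 0.37 (interaction -0.93 ± 0.182, adjusted p = 0.0265). Its call ended without any 1 of 7 arrays (adjusted p = 0.0503 to 0.0694), all except array 1 of both knockout groups and of wild-type saline, knockout saline array 3 and wild-type CL316243 array 3. Sgk2, a kinase related to Akt, had responses of 1.32 and 0.15 (interaction -1.17 ± 0.227, adjusted p = 0.0262), and its call ended without any of the stimulated knockout arrays, knockout saline array 3, wild-type CL316243 array 1 or wild-type saline array 1 (adjusted p = 0.0521 to 0.0684).

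Cytosolic heat shock genes had the lowest median of the lists, -0.57, with 21 estimates below 0. Of 23 tested genes, 4 were called below 0 and 0 above, beside 1.26% and 0.774% of all tested genes. Hsph1, a large chaperone of the Hsp70 family, rose in both genotypes, 8.33-fold in wild types and 3.44-fold in knockouts (interaction -1.27 ± 0.223, adjusted p = 0.0176). Hsph1 read 7.61, 7.80 and 7.78 in wild types after saline, 10.94, 10.94 and 10.49 after CL316243, 7.39, 7.68 and 7.75 in knockouts after saline and 9.14, 9.65 and 9.38 after CL316243. The stimulated knockouts lay between the saline arrays and the stimulated wild types. The Hsph1 call ended without knockout CL316243 array 3 or wild-type CL316243 array 2 (adjusted p = 0.0504 to 0.0506).

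The cochaperone Dnajb1 also rose in both genotypes, by 2.15 and 1.13 (interaction -1.02 ± 0.205, adjusted p = 0.0315), and its call ended without any array other than knockout saline 1 or 2 or wild-type CL316243 1 (adjusted p = 0.0521 to 0.0862). Dnaja1 responded by 1.39 and 0.10 (interaction -1.29 ± 0.263, adjusted p = 0.0328), and its call ended without any array other than array 2 of knockout CL316243, array 3 of wild-type CL316243 or array 2 of wild-type saline (adjusted p = 0.0602 to 0.0873). Ahsa1, an activator of Hsp90, responded by 0.85 and 0.13 (interaction -0.72 ± 0.135, adjusted p = 0.0226), and its call ended without any 1 of 7 arrays (adjusted p = 0.0504 to 0.0707), all except array 1 of the knockout groups and of wild-type CL316243, wild-type CL316243 array 3 and wild-type saline array 2. Hspa1a, the inducible Hsp70, rose by 3.00 in wild types, and its interaction of -1.64 ± 0.646 was not called (adjusted p = 0.237). Hspa1a has a nearly identical neighbouring copy that its probes may also read.

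The lists for the integrated stress response and for endoplasmic reticulum stress each had 1 call below 0 and 1 above. Over all tested genes the shares called were 1.26% below 0 and 0.774% above. The integrated stress response list had 1 called gene below 0 and 1 above among 35, with a median of 0.09. They are the subunits of 1 amino acid transporter. Slc3a2, its heavy chain, read 7.48, 7.40 and 7.30 in wild-type saline arrays, 8.62, 8.56 and 8.60 after CL316243, 7.61, 7.65 and 7.76 in knockout saline arrays and 8.23, 8.17 and 8.12 after CL316243. It rose in both genotypes, less in knockouts (interaction -0.70 ± 0.106, adjusted p = 0.0103, called under all 21 alternatives). Slc7a5, its light chain, read 7.43, 7.33 and 7.64 in wild-type saline arrays, 7.52, 7.54 and 7.68 after CL316243, 7.15, 7.10 and 7.48 in knockout saline arrays and 8.18, 8.15 and 8.04 after CL316243. It was high in the stimulated knockouts alone (interaction 0.77 ± 0.163, adjusted p = 0.0375), and its call ended without any array other than knockout saline 3, wild-type CL316243 3 or wild-type saline 2 (adjusted p = 0.0691 to 0.0958), and under 4 of the 9 processing settings (adjusted p = 0.0501 to 0.066).

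Atf4, the transcription factor of that pathway, rose by 1.03 in wild types and 0.54 in knockouts (interaction -0.49 ± 0.151, adjusted p = 0.134). The endoplasmic reticulum stress list likewise had 1 called gene in each direction among 29 and a median of 0.04. Dnajb9, a cochaperone of the endoplasmic reticulum, had an interaction of -0.96 ± 0.215 (adjusted p = 0.0485), and its call ended without any array other than knockout CL316243 1 (adjusted p = 0.065 to 0.118), and under 5 of the 9 processing settings (adjusted p = 0.052 to 0.0938). Xbp1, a transcription factor of the unfolded protein response, had an interaction of 0.62 ± 0.134 (adjusted p = 0.0425), and its call ended without any array other than knockout CL316243 3 (adjusted p = 0.0593 to 0.098), and under 5 of the 9 processing settings (adjusted p = 0.056 to 0.0931). The proteasome list had 0 called of 31, 3 at an unadjusted p under 0.05, and a median of 0.07.

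Lipid storage genes showed calls below 0, beside 1.26% of all tested genes, and medians near that of all genes. The lipolysis and lipid droplet list had 3 of 29 called below 0 and a median of -0.07. Beside Mfsd2a these were Lipa, the lysosomal lipase, which rose by 0.55 in wild types and fell by 0.32 in knockouts (interaction -0.87 ± 0.137, adjusted p = 0.0112, called under all 21 alternatives), and Aqp7, a glycerol channel. The Aqp7 interaction was -0.84 ± 0.169 (adjusted p = 0.0312), and its call ended without any of the stimulated knockout arrays, wild-type CL316243 array 1 or 2 or wild-type saline array 3 (adjusted p = 0.0562 to 0.085). It also ended under 2 of the 9 processing settings (adjusted p = 0.0547 to 0.0613). After saline, Lipa was already higher in knockouts, by 0.51 (adjusted p = 0.00999), and Aqp7 differed by -0.43 (adjusted p = 0.0411). Plin2, a coat protein of lipid droplets, rose by 1.60 in wild types and 0.89 in knockouts, and its interaction of -0.71 ± 0.166 missed the threshold (adjusted p = 0.0551). It was called without knockout saline array 1 (-0.81, adjusted p = 0.0388) or wild-type saline array 1 (-0.83, adjusted p = 0.0358).

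Triacylglycerol synthesis had 2 of 19 called below 0, beside 1.26% of all tested genes, and a median of -0.07. They were Gpat4, a glycerol-3-phosphate acyltransferase (-0.89 ± 0.203, adjusted p = 0.05 after rounding), and Gpd2, the mitochondrial glycerol-3-phosphate dehydrogenase (-0.90 ± 0.195, adjusted p = 0.0426). The Gpat4 call ended without any array other than wild-type saline 2 (adjusted p = 0.0561 to 0.125), and under 5 of the 9 processing settings (adjusted p = 0.0505 to 0.0922). The Gpd2 call ended without any array other than knockout CL316243 2, knockout saline 1 or wild-type saline 1 (adjusted p = 0.0512 to 0.104), and under 4 of the 9 processing settings (adjusted p = 0.0543 to 0.25). Gpd2 was already lower in knockouts after saline, by -0.81 (adjusted p = 0.00645). Fatty acid synthesis had 0 called of 26, 4 at an unadjusted p under 0.05, and a median of 0.12. Cholesterol synthesis had 0 of 19, 6 at an unadjusted p under 0.05, and a median of 0.29. Glucose uptake and glycolysis had 1 of 34 called, below 0, beside 1.26% of all tested genes, and a median of 0.03. That gene was Pfkp, a phosphofructokinase, which rose by 1.33 and 0.57 (interaction -0.76 ± 0.128, adjusted p = 0.0153), and its call ended without wild-type CL316243 array 2 (adjusted p = 0.0503).

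The retained responses included genes of signalling, lipid metabolism and transcription. The class depends on its limit: with 33% of the wild-type response in place of 50%, 4 of the 35 would count as retained. Hilpda, an inhibitor of the lipase that starts triacylglycerol breakdown, read 7.49, 7.16 and 7.46 in wild-type saline arrays, 9.66, 9.37 and 9.55 after CL316243, 7.08, 7.16 and 6.95 in knockout saline arrays and 9.54, 9.63 and 9.14 after CL316243. The stimulated groups overlapped with each other and lay above both saline groups. Hilpda rose 4.47-fold in wild types and 5.18-fold in knockouts, an interaction of 0.21 ± 0.196 (adjusted p = 0.67) with a 95% interval from -0.22 to 0.65.

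Nfil3, a transcriptional repressor of the bZIP family whose promoter is printed above, read 7.69, 7.58 and 7.76 in wild-type saline arrays, 9.33, 9.44 and 9.83 after CL316243, 6.75, 7.09 and 6.88 in knockout saline arrays and 9.33, 8.89 and 8.93 after CL316243. The knockout saline arrays lay below the wild-type saline arrays, by -0.77 (adjusted p = 0.0119), and both genotypes rose. The interaction was 0.29 ± 0.215 (adjusted p = 0.587), with a 95% interval from -0.19 to 0.76 against a wild-type response of 1.86.

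Ednrb, a receptor for endothelins, rose 3.27-fold in both genotypes (interaction 0.00 at 2 decimals, 95% interval from -0.39 to 0.38), and was chosen after its values were seen, as were the next 4. Gpat3, an acyltransferase of triacylglycerol synthesis, rose by 1.96 and 1.74. Fkbp5, a cochaperone of steroid receptors, rose by 1.52 and 1.34. Pex5, the receptor of peroxisomal import, rose by 1.44 and 1.13, and Tle3, a corepressor, by 1.06 and 0.87. Gpat3 stood in the same triacylglycerol synthesis list as the called Gpat4, and Pex5 in the same peroxisomal list as the called Pex13.

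Akap12, a scaffold that anchors protein kinase A, rose by 2.15 in wild types and 1.60 in knockouts (interaction -0.55 ± 0.194, adjusted p = 0.181). Its 95% interval ran from -0.98 to -0.13, wholly below 0. The interval left out an equal response and a loss of 50% or more, but not a smaller loss. Chka, the choline kinase of phosphatidylcholine synthesis, rose by 2.21 and 1.76 (95% interval of the interaction from -1.01 to 0.10). Adamts9, a secreted metalloprotease, rose by 2.47 and 1.89 (95% interval from -1.09 to -0.08). The Adamts9 interval also lay wholly below 0, so a loss of less than 50% was not left out. These intervals are not adjusted for the number of genes tested.

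Of the 7 retained responses that fell, that of Aplnr was the largest by its wild-type value. Aplnr, the receptor of the vascular peptide apelin, read 9.50, 9.92 and 9.30 in wild-type saline arrays, 6.68, 6.33 and 6.51 after CL316243, 9.43, 9.11 and 9.22 in knockout saline arrays and 7.17, 6.69 and 7.41 after CL316243. It fell to 0.119 of its saline level in wild types and to 0.223 in knockouts (interaction 0.90 ± 0.278, adjusted p = 0.131). The 95% interval of its interaction ran from 0.29 to 1.51 against a wild-type response of -3.07. The interval lay wholly above 0. An equal fall and a loss of 50% or more were therefore left out, but a smaller loss was not. After CL316243 the knockouts were higher by 0.58 (adjusted p = 0.0446). Hoxc6, a homeobox factor, fell by 1.31 and 1.07 (interaction 0.24 ± 0.148, adjusted p = 0.489). Fgf21, a hormone of brown fat and liver, rose by 1.28 in wild types and 0.96 in knockouts (interaction -0.32 ± 0.15, adjusted p = 0.331), with a 95% interval from -0.65 to 0.01 that just reached 50% of the wild-type response, so it was not counted as retained.

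**Figure D4:**
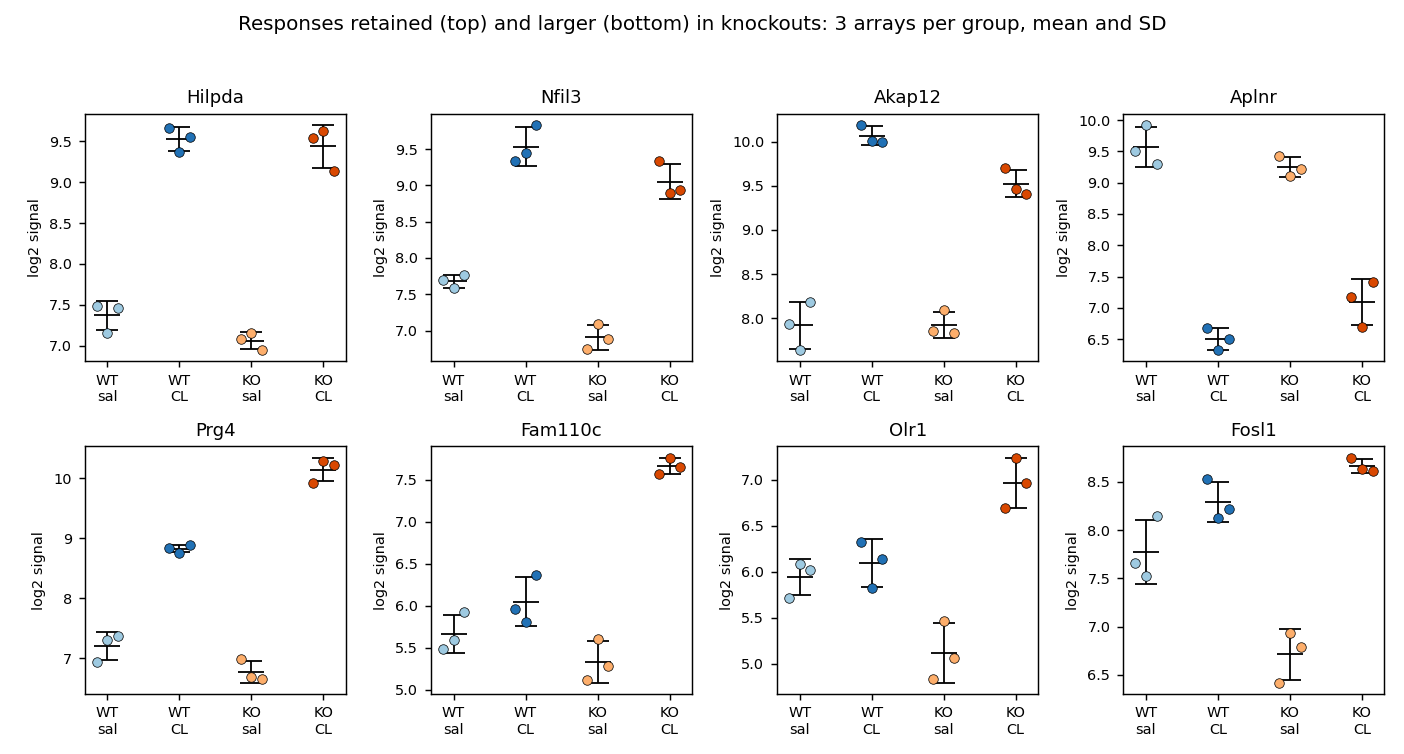
Log2 signal of 4 genes with retained responses (top) and 4 with larger responses in knockouts (bottom), with 1 point per array and the mean and SD of the 3 arrays per group (WT wild type, KO knockout, sal saline, CL CL316243). In the top row both genotypes move in the same direction, and in the bottom row the stimulated knockouts are the highest group.

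A larger response in knockouts was defined as a called interaction together with a called knockout response of at least 1 log2 unit in the same direction. It was found for 24 genes, 23 of them above 0. Their median response was 1.31 in knockouts and 0.18 in wild types, and the median knockout difference was -0.31 after saline and 0.99 after CL316243. Prg4, a lubricating proteoglycan that brown fat and liver secrete, read 6.94, 7.30 and 7.37 in wild-type saline arrays, 8.84, 8.76 and 8.88 after CL316243, 6.98, 6.68 and 6.66 in knockout saline arrays and 9.92, 10.29 and 10.22 after CL316243. Both genotypes rose and the stimulated knockouts stood highest. The rise was 3.09-fold in wild types and 10.4-fold in knockouts (interaction 1.75 ± 0.193, adjusted p = 0.00209).

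Fosl1, a component of the AP-1 transcription factor, was the 1 called gene above 0 of the cAMP and immediate-early list. It read 7.66, 7.52 and 8.15 in wild-type saline arrays, 8.53, 8.13 and 8.22 after CL316243, 6.42, 6.93 and 6.79 in knockout saline arrays and 8.75, 8.63 and 8.61 after CL316243. The knockouts started lower, by -1.06 after saline (adjusted p = 0.00577), and ended 0.37 from the wild types after CL316243 (adjusted p = 0.126). The response was 0.51 in wild types and 1.95 in knockouts (interaction 1.44 ± 0.248, adjusted p = 0.017), and the call ended without wild-type CL316243 array 2 (adjusted p = 0.0506).

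Olr1 is a scavenger receptor for oxidised lipoproteins. Olr1 read 5.72, 6.09 and 6.02 in wild-type saline arrays, 6.33, 5.82 and 6.14 after CL316243, 4.83, 5.47 and 5.06 in knockout saline arrays and 6.69, 7.24 and 6.97 after CL316243. The stimulated knockouts lay above every other array (interaction 1.70 ± 0.276, adjusted p = 0.0136). After saline the knockouts were lower than the wild types, by -0.83 (adjusted p = 0.0228). The knockout saline mean of 5.12 lay under the signal level used as a filter (5.36 to 5.39 in those arrays), so the size of the Olr1 difference is uncertain. Fam110c, a centrosome-associated protein, had a mean of 7.66 in stimulated knockouts and 6.05 in stimulated wild types (interaction 1.94 ± 0.239, adjusted p = 0.00383). Its mean of 5.34 in the knockout saline group also lay under that level, so no fold is given. Nav3, a microtubule-binding protein, rose by 1.52 in knockouts with a wild-type difference of -0.22 (interaction 1.74 ± 0.255, adjusted p = 0.00886). Prg4, Olr1, Fam110c and Nav3 were called under all 21 alternatives.

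Further genes of this class were chosen after their values were seen. Clcf1, a cytokine of the interleukin-6 family, rose by 1.33 in knockouts against 0.26 in wild types (interaction 1.07 ± 0.187, adjusted p = 0.0176). Acsl4, a ligase that activates arachidonic acid, rose by 1.24 against 0.14 (interaction 1.10 ± 0.173, adjusted p = 0.011). Slc39a14, a zinc and iron importer, rose by 1.34 against 0.21 (interaction 1.13 ± 0.203, adjusted p = 0.02), and its call ended without knockout CL316243 array 2 or 3 or wild-type CL316243 array 2 (adjusted p = 0.0534 to 0.0571). Fam214a was the 1 gene with a larger fall, by 1.30 in knockouts against a rise of 0.52 in wild types (interaction -1.82 ± 0.229, adjusted p = 0.00436). The class counted 13 genes without wild-type CL316243 array 2, and the class of smaller responses 66 without that array and 70 without knockout CL316243 array 3.

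Inflammatory genes had the highest median interaction of the lists that describe a pathway. Of 44 tested inflammatory and NF-κB genes, 3 were called above 0 and 0 below, beside 0.774% and 1.26% of all tested genes. The median was 0.68, and 40 estimates lay above 0. Osmr, the receptor of oncostatin M, rose by 1.09 in knockouts with a wild-type difference of -0.03 (interaction 1.12 ± 0.167, adjusted p = 0.0093). Cd14, a co-receptor for bacterial lipopolysaccharide, rose by 0.97 in knockouts with a wild-type difference of -0.40 (interaction 1.36 ± 0.206, adjusted p = 0.0102), and both were called under all 21 alternatives. Ccl3, a chemokine, fell by 1.11 in wild types with a knockout difference of 0.40 (interaction 1.503 ± 0.327, adjusted p = 0.0433), and its call ended without any array other than knockout CL316243 1, knockout saline 3 or wild-type saline 2 (adjusted p = 0.0579 to 0.0997), and under 6 of the 9 processing settings (adjusted p = 0.0526 to 0.0962).

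Other inflammatory genes of the panel were not called. The interaction was 1.44 ± 0.482 for the alarmin Il33 (adjusted p = 0.166), 1.63 ± 0.685 for the pentraxin Ptx3 (adjusted p = 0.27) and 0.86 ± 0.216 for Socs3, a feedback inhibitor of cytokine receptors (adjusted p = 0.0674). Il33 and Ptx3 rose in knockouts, by 2.36 and 2.49, while their wild-type differences of 0.92 and 0.87 were not called. Socs3 was called without knockout CL316243 array 1 (1.02, adjusted p = 0.0342). Markers of macrophages and monocytes had a median interaction of 0.19, with 0 of 21 called and 4 at an unadjusted p under 0.05. The mean centred signal of these markers lay between -0.59 and -0.21 in wild-type saline arrays, -0.53 and -0.41 after CL316243, 0.21 and 0.50 in knockout saline arrays, and 0.42 and 0.57 after CL316243. Neutrophil and mast cell markers had a median of 0.56, with 0 of 13 called and 5 at an unadjusted p under 0.05. The part of these cells in the inflammatory genes was not tested.

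Interferon-stimulated genes fell in wild types and less in knockouts for the 2 called of 33 tested. Both were called above 0, beside 0.774% of all tested genes. Apol6, an apolipoprotein induced by interferon, read 11.03, 11.38 and 10.63 in wild-type saline arrays, 7.78, 8.33 and 7.39 after CL316243, 11.33, 11.46 and 11.02 in knockout saline arrays and 10.29, 10.06 and 9.98 after CL316243. The saline groups overlapped and the stimulated groups did not. Apol6 fell to 0.11 of its saline level in wild types and to 0.449 in knockouts (interaction 2.02 ± 0.333, adjusted p = 0.0143), called under all 21 alternatives. Gbp2, a guanylate-binding GTPase, fell to 0.204 in wild types, with a knockout difference of -0.46 that was not called (interaction 1.83 ± 0.324, adjusted p = 0.0186). Compared with wild types, the knockouts were already lower after saline, by -1.02 (adjusted p = 0.0185), and higher after CL316243, by 0.81 (adjusted p = 0.0218). The Gbp2 call ended without wild-type CL316243 array 2 (adjusted p = 0.0506) and under 1 of the 9 processing settings (adjusted p = 0.0575). The list's median interaction was 0.53, with 31 estimates above 0. Lymphocyte markers had a median of 0.30, with 0 of 18 called and 0 at an unadjusted p under 0.05, and their mean centred signal ran from -0.43 to 0.60, -0.66 to -0.51, 0.24 to 0.91 and -0.39 to 0.73 in the 4 groups in the order wild-type saline, wild-type CL316243, knockout saline and knockout CL316243. The part of lymphocytes in these genes was not tested.

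Of 28 antioxidant and metallothionein genes, 2 were called above 0 and 1 below, beside 0.774% and 1.26% of all tested genes. The list's median was 0.06. Mt2, a metallothionein, rose by 1.56 in knockouts with a wild-type difference of 0.21 (interaction 1.35 ± 0.297, adjusted p = 0.0442), and its call ended without any array other than array 2 of either saline group (adjusted p = 0.0569 to 0.101), and under 4 of the 9 processing settings (adjusted p = 0.0556 to 0.0964). Gsr, glutathione reductase, fell by 0.77 in wild types with a knockout difference of 0.19 (interaction 0.96 ± 0.217, adjusted p = 0.0495), and its call ended without any array other than wild-type saline 2 (adjusted p = 0.0564 to 0.117), and under 5 of the 9 processing settings (adjusted p = 0.0631 to 0.0945). Osgin1, an oxidative stress-induced growth inhibitor, rose by 1.24 in wild types with a knockout difference of 0.19 (interaction -1.06 ± 0.187, adjusted p = 0.0188), and its call ended without wild-type CL316243 array 2 (adjusted p = 0.0506). Hmox1, heme oxygenase, rose by 1.42 in knockouts, and its interaction of 0.83 ± 0.3 was not called (adjusted p = 0.195).

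The remaining lists had at most 1 called gene, beside 2.04% of all tested genes. Of 35 secreted hormones and growth factors, Prg4 was the 1 called, and the median was 0.20; Angptl4, an inhibitor of lipoprotein lipase (0.91 ± 0.464, adjusted p = 0.38), and Vegfa, an angiogenic factor (-0.26 ± 0.222, adjusted p = 0.634), were not called. White adipocyte genes had 0 of 21 called, 9 at an unadjusted p under 0.05, and a median of 0.37. Leptin (Lep) fell by 1.71 in wild types and 0.99 in knockouts (interaction 0.72 ± 0.252, adjusted p = 0.178), and was called without knockout saline array 1 (0.93, adjusted p = 0.0476). Circadian clock genes had 0 of 19, 6 at an unadjusted p under 0.05, and a median of -0.03.

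Lists for other cell types were as follows. Endothelial and angiogenic genes had 1 of 30 called, below 0, beside 1.26% of all tested genes, and a median of -0.15. The called gene was Sox17, an endothelial transcription factor (-0.84 ± 0.173, adjusted p = 0.0351). Its call ended without any array other than knockout CL316243 1 (adjusted p = 0.0535 to 0.0964) and under 4 of the 9 processing settings (adjusted p = 0.0531 to 0.731). With the mean of its rows the Sox17 interaction was only -0.154 (adjusted p = 0.731), so its size depended on the row used. Fibroblast and matrix genes had 1 of 32 called, above 0, beside 0.774% of all tested genes, and a median of 0.01. This was Col15a1, a basement membrane collagen, which rose by 0.75 in knockouts (interaction 0.77 ± 0.14, adjusted p = 0.021). Col15a1 was already higher in knockouts than in wild types after saline, by 1.01 (adjusted p = 5.83e-04). The Col15a1 call ended without knockout CL316243 array 2, wild-type CL316243 array 2 or wild-type saline array 3 (adjusted p = 0.0506 to 0.0562). Schwann cell genes (0 of 17, median 0.08, 0 at an unadjusted p under 0.05) and glandular epithelial genes (0 of 20, median 0.54, 3 at an unadjusted p under 0.05) had no call.

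**Figure D5:**
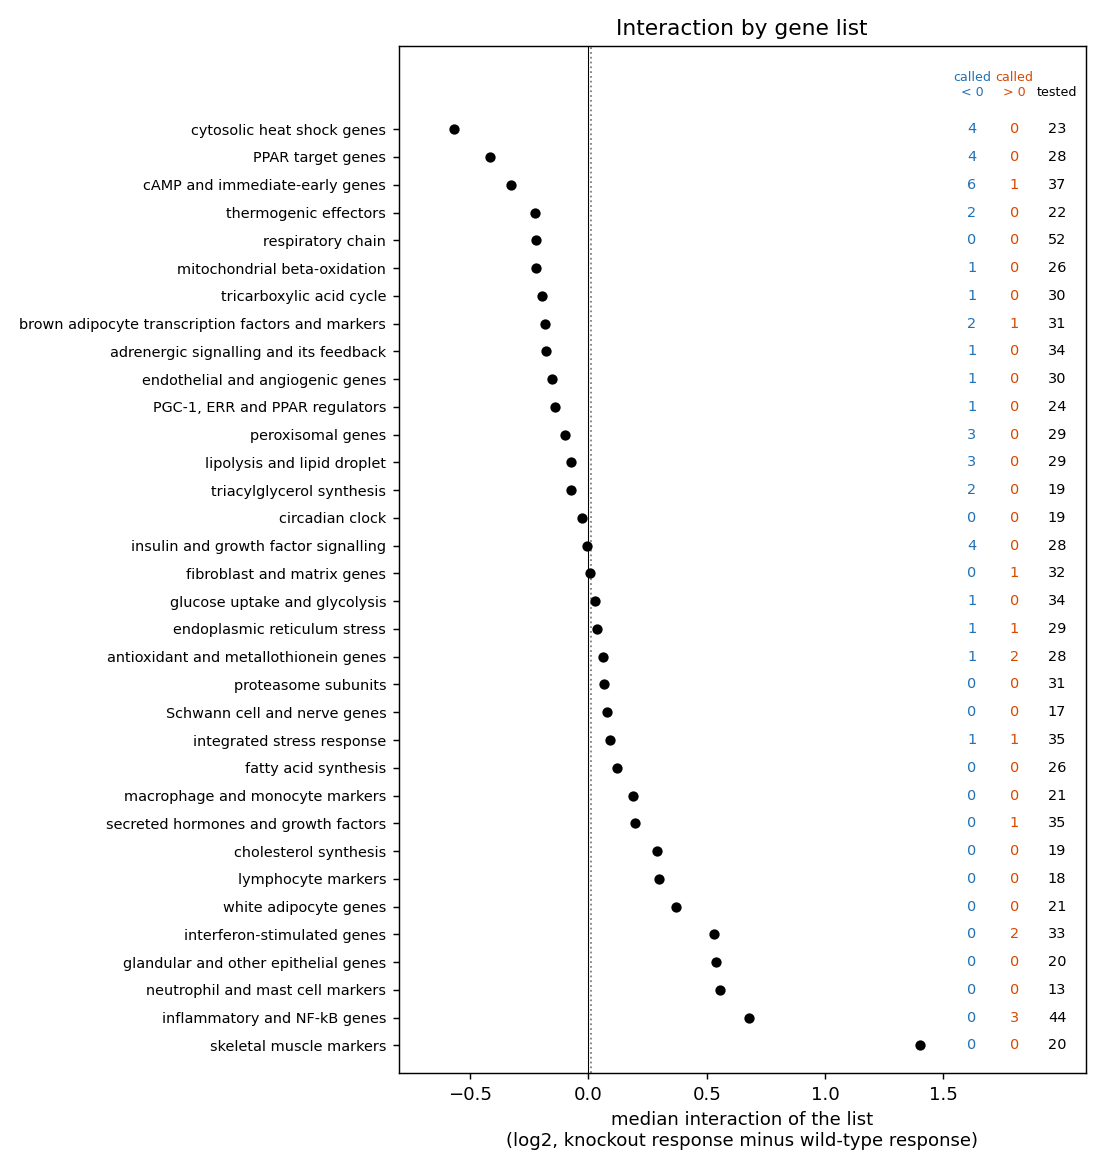
Median interaction (log2, knockout response minus wild-type response) of the tested members of each of the 34 gene lists, with the numbers of members called below 0 (blue), called above 0 (orange) and tested on the right and the median of all tested genes as a dotted line at 0.01. Heat shock genes (-0.57), PPAR targets (-0.42) and cAMP early genes (-0.33) lie at the low end, and inflammatory genes (0.68) and skeletal muscle markers (1.40, none called) at the high end.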

How the data were processed

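Total RNA of 12 mice was measured on 1-colour arrays, 1 per mouse and 3 per group, and groups were taken from the sample labels. The deposited values are log2 signals. The submitters' processing notes list RMA and Partek as the authors' tools and mm9 as the build, without versions. The deposited log2 values were used without further scaling. Of 115830 rows, 25539 belong to 1 gene in the probe table used here, 2300 to several and 87991 are not listed, and no sample column was left out (0). Each of 20259 genes was represented by its row of highest mean, and 15896 genes above the 25th percentile of named genes in at least 3 arrays were tested. The 3 arrays per group limit precision.

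A model with 1 mean per group was fitted in limma (version 3.58.1, R version 4.3.3), with empirical Bayes moderation (prior degrees of freedom 3.14, residual 8). The contrasts were the interaction, the agonist effect in each genotype and the knockout difference after each injection. Benjamini-Hochberg adjustment ran over all 15896 genes, separately for each contrast. Tables and figures were made with Python 3.11.15, pandas 2.3.3 and matplotlib 3.10.9, and the fit was tested on simulated data.

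The comparison, the 34 gene lists (1011 genes, 893 with a row of their own), a panel of 45 genes (41 with such a row) and the class limits were chosen with earlier results of these data known. Genes were named by a rule: the 15 largest called interactions in each direction, 10 rising and 5 falling retained responses, up to 4 called genes per list and the panel. The text describes part of these, chosen with the values in view, and says where a gene falls outside the rule. The alternatives were another centring or quantile normalization of the arrays, dropping the filter or raising it to the 50th percentile, averaging the rows of a gene, trended and robust moderation, ordinary least squares, replicate number as a block, a skeletal muscle covariate, stricter or looser limits, and omitting 1 array at a time. Promoter sequences are from RefSeq (GRCm38.p6), and no probe coordinates are given, since the notes name another build.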

Additional observations from a re-analysis of the deposited data

Results flagged for a closer look

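The agonist response differed between knockouts and wild types, by the interaction term of the limma fit with Benjamini-Hochberg adjustment, for 65 of the genes described above, each with 3 arrays per group. Interactions below 0, in log2 units, are given from the lowest. The values were -2.52 for Mfsd2a, -2.52 for Ffar4, -2.45 for Pdp2, -2.41 for Plk3, -2.35 for Irs2 and -2.20 for Ehhadh. They continued with -2.07 for Dagla, -1.98 for Fbxo21, -1.95 for Prdm16, -1.94 for Cables1, -1.89 for Elovl3 and -1.88 for Gem. These were followed by -1.85 for Slc4a4, -1.84 for Nr4a2, -1.82 for Fam214a, -1.67 for Irs1, -1.63 for Acot3 and -1.57 for Sik1. Next came -1.57 for Acot4, -1.54 for Ppargc1a, -1.53 for Atf3, -1.504 for Dusp7, -1.29 for Dnaja1 and -1.27 for Hsph1. Smaller in size were -1.17 for Sgk2, -1.17 for Klf4, -1.15 for Kcnk3, -1.15 for Adcy3, -1.14 for Cebpb and -1.12 for Acot2. Then followed -1.06 for Osgin1, -1.02 for Dnajb1, -0.96 for Dnajb9, -0.93 for Foxo1, -0.91 for Pex13 and -0.90 for Gpd2. Below these in size were -0.89 for Gpat4, -0.87 for Lipa, -0.86 for Ebf2, -0.84 for Aqp7, -0.84 for Crat and -0.84 for Sox17. The smallest in size were -0.79 for Acot8, -0.76 for Pfkp, -0.72 for Ahsa1 and -0.70 for Slc3a2.

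Interactions above 0 are given from the highest. The first were 2.02 for Apol6, 1.94 for Fam110c, 1.83 for Gbp2, 1.75 for Prg4, 1.74 for Nav3 and 1.72 for Plac8. After them came 1.70 for Olr1, 1.503 for Ccl3, 1.44 for Fosl1, 1.36 for Cd14, 1.35 for Mt2 and 1.13 for Slc39a14. Further values were 1.12 for Osmr, 1.10 for Acsl4, 1.07 for Clcf1, 0.96 for Gsr, 0.77 for Slc7a5 and 0.77 for Col15a1. The lowest was 0.62 for Xbp1.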

How the results depend on the processing

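With all arrays 324 interactions were called, and leaving out 1 array gave 128 to 401, with 42 to 117 above 0 and 86 to 284 below 0. The agonist effect was called for 1596 to 3372 genes in knockouts and 3533 to 4721 in wild types, and the classes held 66 to 139 smaller, 24 to 37 retained and 13 to 33 larger responses. Filtering at the 50th percentile gave 497 calls, 212 of them above 0, and centring the arrays again left 59 above 0. At an adjusted p under 0.01, 52 were called, 11 above and 41 below 0, and a minimum of 1 log2 unit left 119, with 37 above and 82 below. With a 1.5-fold wild-type response the classes held 189 smaller, 53 retained and 55 larger responses, and a limit of 33% in place of 50% left 4 retained. The causes were not tested, apart from the fewer samples or the limits that these alternatives impose.

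The replicate numbers in the labels did not pair the arrays: deviations of 18 same-numbered pairs correlated at r of -0.298 to 0.476, with 7 over 0.1. With replicate number as a block, 292 interactions were called, 101 above and 191 below 0, with 4662 genes called in wild types and 2796 in knockouts, and with 109 smaller, 37 retained and 24 larger responses.

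Over the 96 genes named, 2016 values under alternatives included 1716 with the same direction and side of the threshold, 272 that lost the call, 10 that gained it and 18 that changed sign. Of the 65 called genes, 34 kept the call under all 21 refits at the same threshold, and 24 lost it under at least 1 of the 9 processing settings. Ordinary least squares ended 24 of these calls, the muscle covariate 13, no filter 10, the replicate block 9, centring again 8, the mean of a gene's rows 3 and quantile normalization 2. The sign changes were in 3 uncalled genes with values near 0 or wide errors: Cpt2 (0.046 after quantile normalization and -0.073 to 0.084 with 1 array left out), Ednrb (0.065 after quantile normalization, 0.066 with the muscle covariate and -0.110 to 0.086 with 1 array left out) and Ucp1 (-1.533 to 0.417 with 1 array left out). With 3 arrays per group, the 95% interval of a typical gene reached 0.362 to either side, without adjustment for the number of genes tested. A call at an adjusted p under 0.05 needed a larger difference for such a gene, and the smallest called interaction was 0.42. Differences below these sizes could not be resolved for a typical gene, and larger ones may also go uncalled.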
